A study of Homo sapiens with 6 samples.

Results

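Matriptase, encoded by *ST14*, was followed together with related serine proteases of the cell surface (*PRSS8*, *TMPRSS2*, *TMPRSS4*, *HPN*), the Kunitz inhibitors *SPINT1* and *SPINT2*, and the substrates *F2RL1* and *EPCAM*. These are 9 of the 60240 genes of the count table, and all of them were found by symbol. The set was named by gene family, but *ST14* and *EPCAM* were chosen from their lower levels in LSD1 KO libraries, which had been seen before. The group differences of the members are therefore given as a description and not as tests. RNA was read in HCT116, a human colorectal carcinoma cell line, in 3 libraries labelled wild-type (WT) and 3 labelled LSD1 knockout (LSD1 KO), with no other treatment stated in the labels. LSD1, the product of *KDM1A*, is a histone demethylase. The knockout was made by transient transfection of Cas9 with a guide to exon 1 of *KDM1A*, puromycin selection and expansion of individual clones. The sources used here do not give which clone each LSD1 KO library came from, so the effect of the gene and of the clone cannot be told apart. Nothing in the labels says that the replicates were separate cultures or that same-numbered libraries were prepared together. The p-values measure the spread between these libraries only.

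Matriptase is made as an inactive precursor and is switched on by a cut after an arginine at the start of its protease domain. Active matriptase can cut other surface proteins of epithelial cells, among them prostasin (the product of *PRSS8*), the receptor PAR2 (the product of *F2RL1*) and the adhesion protein EPCAM. The inhibitors encoded by *SPINT1* and *SPINT2* block these proteases with Kunitz domains and are needed to hold matriptase in check in the intestinal epithelium. The sites where these proteins meet are shown because they are what the members share. Each line holds coding bases 5′ to 3′ from the GENCODE v44lift37 canonical transcript. The sites were found by motif, and an inhibitor site that differs from the motif is not shown. The capitals mark the codon of the arginine after which the precursor, the receptor or EPCAM is cut, or the arginine that the inhibitor offers to the protease.
ST14 activation site: agacaggctCGTgttgttgggggcacg
PRSS8 activation site: ccccaagcaCGCatcacaggtggcagc
TMPRSS2 activation site: cgccagagcAGGattgtgggcggcgag
TMPRSS4 activation site: aagacccccCGTgtggtgggtgtggag
HPN activation site: cccgtggacCGCatcgtgggaggccgg
F2RL1 tethered ligand site: tctaaaggaAGAagccttattggtaag
EPCAM matriptase site: aaacttgggAGAagagcaaaacctgaa
SPINT1 inhibitor site: ggtcgctgcCGGggctctttcccacgc
SPINT2 first inhibitor site: ggcagatgcCGGgcctccatgcctagg
SPINT2 second inhibitor site: gggccttgcCGTgcatccttcccacgc

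Counted from the first residue of the translated transcript, the arginine lies at position 614 of 855 in matriptase, 44 of 343 in prostasin, 255 of 492 in TMPRSS2, 204 of 437 in TMPRSS4 and 162 of 417 in hepsin. It lies at position 36 of 397 in the receptor, 80 of 314 in EPCAM, 260 of 513 in the *SPINT1* product, and 48 and 143 of 252 in the *SPINT2* product. On GRCh38 (RefSeq, GRCh38.p14), *ST14* spans chromosome 11 from 130159782 to 130210362 and *TMPRSS4* the same chromosome from 118077078 to 118125505. *PRSS8* spans chromosome 16 from 31131433 to 31135727, *SPINT1* chromosome 15 from 40844048 to 40858207, and *SPINT2* and *HPN* chromosome 19 from 38264573 to 38292615 and from 35040506 to 35066573. *F2RL1* spans chromosome 5 from 76819030 to 76835315, *EPCAM* chromosome 2 from 47369311 to 47387020, and *TMPRSS2* chromosome 21 from 41464305 to 41508158.

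The libraries held from 25379279 to 29186963 counts. Levels are given as CPM, counts scaled to a common library total with TMM factors. *KDM1A* had 231.2, 224.4 and 213.8 CPM in WT replicates 1, 2 and 3 and 29.9, 27.6 and 27.8 CPM in LSD1 KO, so each library matched its label. Of 10 colorectal epithelial markers, *KRT8*, *KRT18* and *KRT19* carried most of the signal. The summed level of the list ranged from 1853 to 3572 CPM in the WT libraries and from 2287 to 3083 CPM in LSD1 KO. *KRT18* alone of the 6 tested did not overlap between the groups (7.74% of all tested genes did not). It had 508 ± 142 CPM in WT and 359 ± 13.8 CPM in LSD1 KO (SD, n = 3). *KRT19* was higher in LSD1 KO in each same-numbered pair (log2 differences 0.72, 0.34 and 0.29) and *CDH1* lower (-0.27, -0.48 and -0.27). None of the 6 was called by edgeR with or without the replicate block. *CDX1* had no count in any library, and *VIL1*, *LGALS4* and *CDH17* had at most 10 counts in any, so these intestinal markers were absent or nearly absent. *CDX2*, of the same list, was read in each library, from 322 to 554 times. It had 16.7 ± 4.41 CPM in WT and 16.7 ± 2.85 CPM in LSD1 KO (SD, n = 3). Of 14 markers of other cell types, 13 were matched and 7 of these had at most 10 counts in any library. The summed level of the matched markers ranged from 43.0 to 57.5 CPM in the WT libraries and from 70.4 to 79.7 CPM in LSD1 KO, mostly from *COL1A1* and *CD68*. Neither gene overlapped between the groups, which held for 7.74% of all tested genes. *COL1A1*, a collagen of fibroblasts, had 22.7 ± 1.97 CPM in WT and 32.4 ± 2.05 CPM in LSD1 KO (SD, n = 3). It was the 1 of 6 tested markers called by edgeR with the replicate block (q value 0.0628), against 1.60% of all tested genes. *CD68*, a macrophage marker, had 17.8 ± 1.80 CPM in WT and 29.0 ± 5.99 CPM in LSD1 KO and was not called. *PTPRC*, *COL1A2* and *DCN* had at most 3 counts in any library, and *CD3E* had none. The part of the marker difference in the results for the members was not tested. In bulk RNA, fewer cells of a type and less RNA per cell cannot be told apart.

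The members fell into an expressed set and a silent set. In the WT libraries *SPINT2* had the highest level per transcript length, 193.0 ± 64.0 CPM per kb (SD, n = 3), and 98.4% of the tested genes with a known length lay below it. *EPCAM* followed with 131.9 ± 25.4 CPM per kb, and the WT ranges of *SPINT2* and *EPCAM* overlapped. *F2RL1* had 75.9 ± 3.30 CPM per kb, below *EPCAM* in each WT library. *ST14* with 38.6 ± 7.15 CPM per kb and *SPINT1* with 36.3 ± 7.22 CPM per kb had overlapping ranges, although *SPINT1* lay slightly below *ST14* in each WT library. *PRSS8* was the lowest expressed member with 13.6 ± 4.88 CPM per kb, below the ranges of both, and 71.3% of the tested genes lay below it.

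*TMPRSS2*, *TMPRSS4* and *HPN* were silent or nearly so. *TMPRSS2* had 0 counts in each of the 6 libraries, which allows up to 3 counts per library, or between 0.0994 and 0.114 CPM, for counting error only. *TMPRSS4* was read 8, 1 and 4 times in WT replicates 1, 2 and 3 and 3, 4 and 3 times in the LSD1 KO replicates. *HPN*, the gene of hepsin, was read 1, 0 and 0 times in the WT replicates and 3, 6 and 0 times in the LSD1 KO replicates. These genes were removed as too low before the fits, and no fold change is given for them. Among the other 17 membrane-anchored or related serine proteases listed, 11 likewise had at most 10 counts in any library. The highest mean CPM among the 17 belonged to *CORIN* and *PRSS22*, with WT means of 4.66 and 3.70 CPM.

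**Figure D1:**
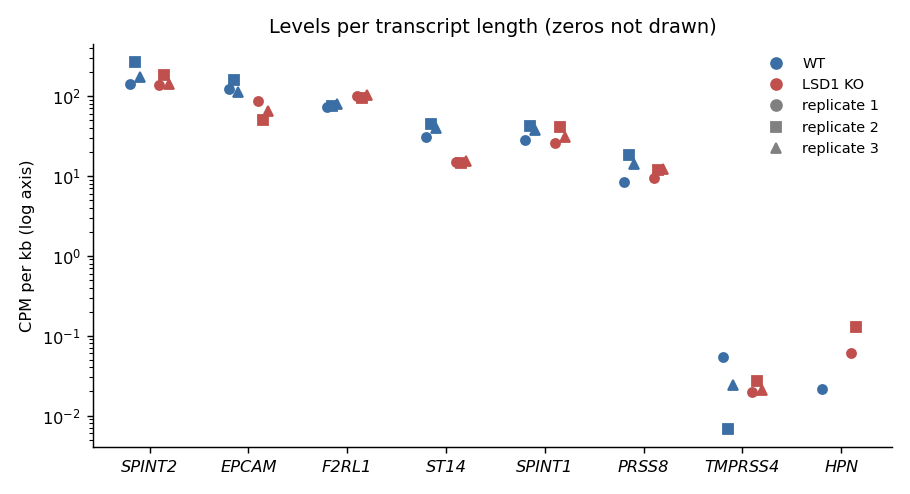
Level of each member with counts, in CPM per kb of canonical transcript on a log axis, with 1 point per library (blue WT, red LSD1 KO, marker shape the replicate number); zeros are not drawn and *TMPRSS2* had no counts. From 8.43 to 264.7 CPM per kb were read for the 6 expressed members, while *TMPRSS4* and *HPN* stayed under 0.127 CPM per kb.

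*ST14* was lower in each LSD1 KO library than in each WT library. It had 101.5, 147.7 and 133.1 CPM in WT replicates 1, 2 and 3, and 48.8, 48.6 and 51.1 CPM in the same replicates of LSD1 KO. The groups did not overlap, and the LSD1 KO mean was 38.9% of the WT mean. The WT libraries were spread over 18.5% of their mean (SD over mean) and the LSD1 KO libraries over 2.84%. Pairing libraries by replicate number gave log2 differences of -1.06 in pair 1, -1.60 in pair 2 and -1.38 in pair 3. The log2 fold change was -1.36 (standard error 0.18) in edgeR without a replicate block and -1.35 (standard error 0.12) with it.

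*EPCAM*, a homophilic adhesion protein of epithelial cells, had 191.2, 248.0 and 172.8 CPM in WT replicates 1, 2 and 3. In LSD1 KO it had 133.9, 77.6 and 101.4 CPM. The groups did not overlap, and the LSD1 KO mean was 51.1% of the WT mean. The pair of replicates numbered 2 stood apart, since *EPCAM* was highest there in WT and lowest there in LSD1 KO. The log2 difference was -1.68 in that pair, against -0.51 and -0.77 in pairs 1 and 3. The log2 fold change was -0.97 (standard error 0.24) without the replicate block, -0.98 (standard error 0.20) with it, and -0.66 with the block after replicate 2 of both groups was left out.

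*F2RL1*, whose product PAR2 is a G protein-coupled receptor opened by protease cleavage, went the other way. It had 207.5, 217.4 and 226.3 CPM in WT and 283.4, 267.6 and 298.3 CPM in LSD1 KO. No LSD1 KO library lay within the WT range, and the means stood at a ratio of 1.30. Pairs 1, 2 and 3 gave log2 differences of 0.45, 0.30 and 0.40, and the log2 fold change was 0.38 in both fits (standard error 0.15 without the replicate block and 0.084 with it). Per transcript length, *F2RL1* lay above *EPCAM* in each LSD1 KO library, from 93.5 to 104.3 against 50.1 to 86.6 CPM per kb, the reverse of their order in WT.

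**Figure D2:**
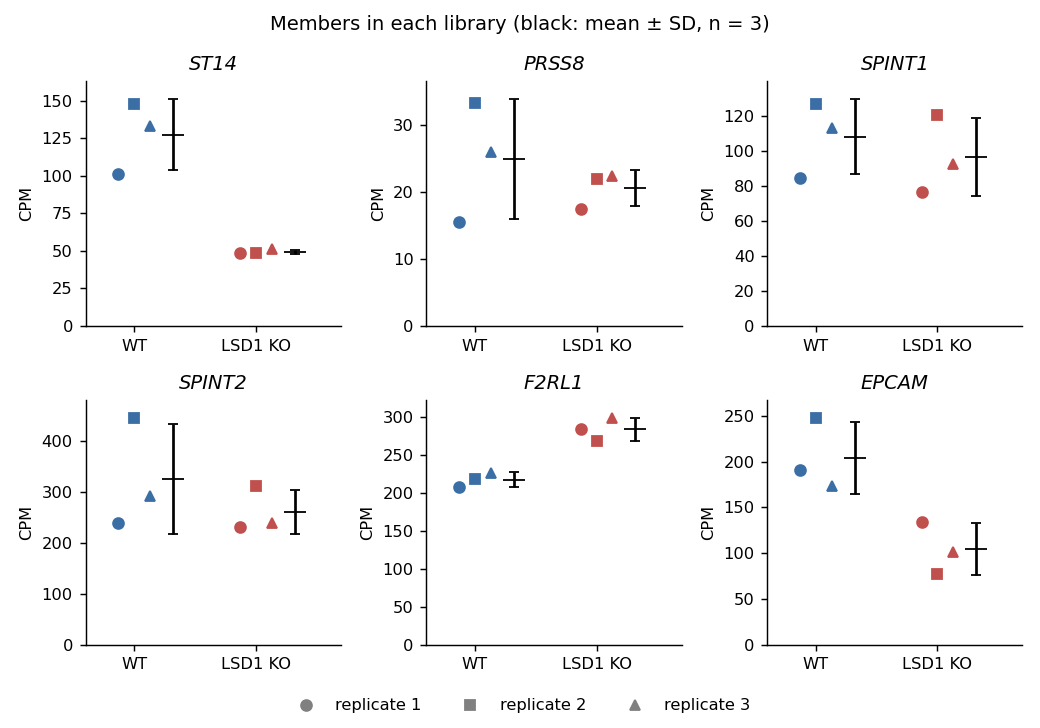
CPM of the 6 expressed members in each library, with WT in blue, LSD1 KO in red, marker shape for the replicate number and the black bar for mean ± SD (n = 3). *ST14* and *EPCAM* sit lower and *F2RL1* higher in LSD1 KO without overlap, while *PRSS8*, *SPINT1* and *SPINT2* overlap between the groups.

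The inhibitors and prostasin overlapped between the groups. *SPINT1* had 84.4, 126.5 and 113.1 CPM in WT replicates 1, 2 and 3 and 76.6, 120.4 and 92.7 CPM in LSD1 KO. *SPINT2* had 238.9, 446.9 and 291.8 CPM in WT and 232.4, 311.9 and 238.9 CPM in LSD1 KO. *PRSS8*, the GPI-anchored protease prostasin, had 15.5, 33.3 and 26.0 CPM in WT and 17.6, 22.0 and 22.5 CPM in LSD1 KO. All of them were low in replicate 1 of both groups. Their log2 fold changes without the replicate block were -0.16 for *SPINT1* (standard error 0.22), -0.32 for *SPINT2* (standard error 0.25) and -0.27 for *PRSS8* (standard error 0.27). With the block they were -0.17 (standard error 0.089), -0.28 (standard error 0.11) and -0.22 (standard error 0.15). *SPINT1* was lower in LSD1 KO in each pair, with log2 differences of -0.14, -0.071 and -0.29. *SPINT2* was also lower in each pair, with -0.040, -0.52 and -0.29. For *PRSS8* the pairs gave 0.18, -0.60 and -0.21, so its direction was not shared by them. The 3 values depended on single libraries. Without WT replicate 2 the log2 fold change was -0.037 for *SPINT1*, -0.028 for *SPINT2* and -0.014 for *PRSS8*, and without LSD1 KO replicate 1 that of *SPINT1* was -0.019.

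Of the 9 members, 6 passed the filter on low counts. None of the 6 was called at a q value under 0.1 by edgeR without a replicate block, where 0.00566% of all tested genes were called (1 gene, *KDM1A*), and 3 of the 6 had an unadjusted p under 0.05, against 3.12% of all tested genes. With the replicate block 2 of the 6 were called, *ST14* and *EPCAM*, both lower in LSD1 KO, against 1.60% of all tested genes called and 0.549% called as lower. DESeq2's Wald test, which gave a q value to 8 members, also called *ST14* and *EPCAM*, against 0.376% of genes. DESeq2 with the replicate block called *ST14* and *F2RL1*, against 4.21% of genes. The CPM ranges of the groups did not overlap for 3 of the 6 members and for 7.74% of all tested genes. The median log2 fold change was -0.30 over the 6 members and 0.00082 over all tested genes. Because this contrast chose *ST14* and *EPCAM*, nothing is read from these counts.

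**Figure D3:**
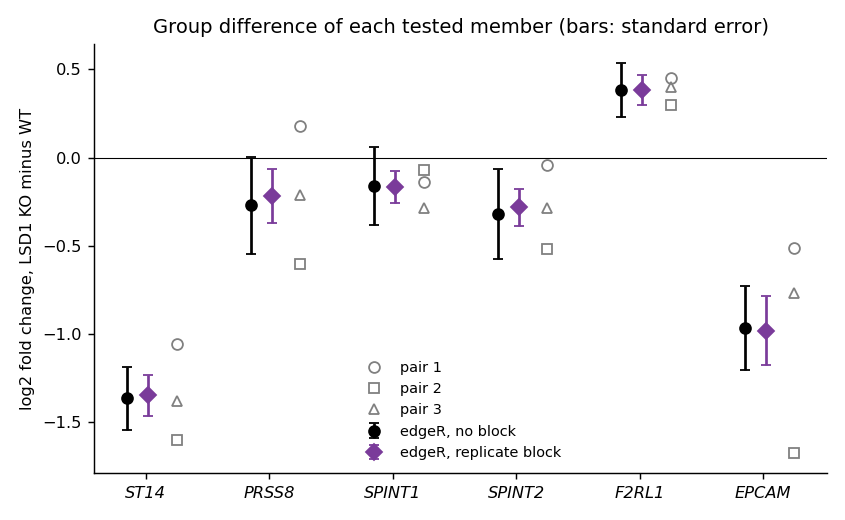
Log2 fold change of LSD1 KO minus WT for the 6 tested members, with standard errors, from edgeR without (black circles) and with (purple diamonds) the replicate block, and the log2 difference of CPM within each same-numbered pair (open grey markers). The fits gave -1.36 and -1.35 for *ST14*, and the pairs of *EPCAM* ran from -1.68 to -0.51.

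The balance of inhibitor to protease transcripts followed from these levels and is likewise a description. Per transcript length, the ratio of *SPINT1* to *ST14* was 0.923, 0.950 and 0.943 in WT replicates 1, 2 and 3. It was 1.74, 2.75 and 2.01 in LSD1 KO. In WT the 2 transcripts thus kept nearly 1 ratio (SD 0.0143) although each of them was lower in replicate 1, whereas in LSD1 KO the ratio varied with *SPINT1*, which ran from 76.6 to 120.4 CPM. The ratio of *SPINT2* to *ST14* lay between 4.29 and 5.92 in WT, against 9.15 to 12.6 in LSD1 KO. *PRSS8* to *ST14* lay between 0.275 and 0.406 in WT, against 0.647 to 0.812 in LSD1 KO, so prostasin transcripts came nearer to those of matriptase but stayed below them in each library. *F2RL1* to *ST14* was 2.01 ± 0.333 in WT (SD, n = 3) and 6.60 ± 0.211 in LSD1 KO. *EPCAM* to *ST14* overlapped between the groups, with 2.77 to 4.03 in WT against 3.41 to 5.86 in LSD1 KO, both transcripts being lower there. *F2RL1* to *EPCAM* did not overlap, with 0.587, 0.474 and 0.708 in WT and 1.14, 1.87 and 1.59 in LSD1 KO. The 2 ratios among the inhibitors and prostasin overlapped. *SPINT1* to *PRSS8* lay between 2.34 and 3.36 in WT, against 2.54 to 3.38 in LSD1 KO, and *SPINT2* to *SPINT1* between 4.55 and 6.23, against 4.55 to 5.35. With inhibitors and proteases each summed, the ratio was 4.37 ± 0.51 (SD, n = 3) in WT and 7.13 ± 1.17 in LSD1 KO.

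**Figure D4:**
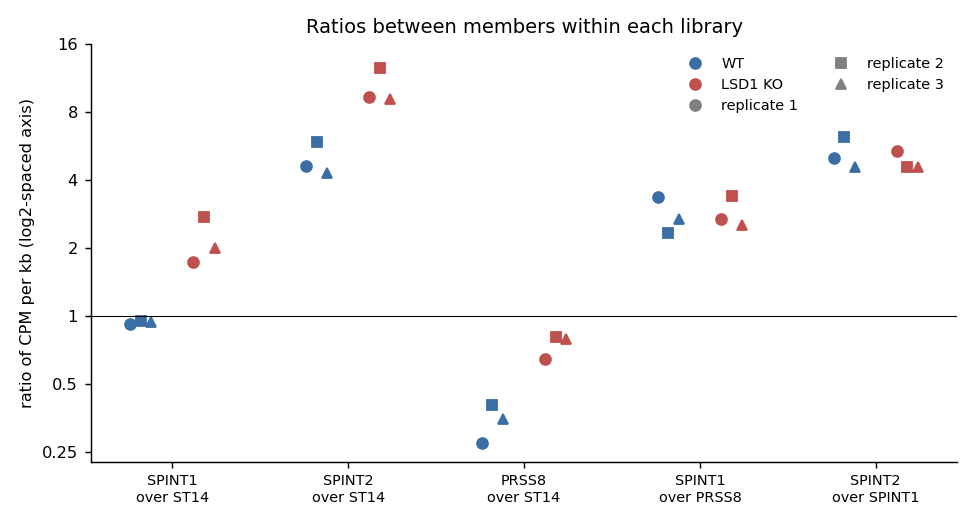
Ratio of CPM per kb between members within each library on a log2-spaced axis, with WT in blue, LSD1 KO in red and marker shape for the replicate number. The 3 drawn ratios over *ST14* are higher in LSD1 KO without overlap, for example 0.923 to 0.950 against 1.74 to 2.75 for *SPINT1*, and the drawn ratios without *ST14* overlap.

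Variation between replicate numbers was a measure that had no part in the choice of members, and it was tested with both groups in the model (edgeR's quasi-likelihood F test, adjusted over all tested genes). Of the 6 tested members, 3 had a q value under 0.1, against 41.2% of all tested genes, so the members' share was near the background. They were *SPINT1* (q value 0.0127), *SPINT2* (q value 0.0150) and *PRSS8* (q value 0.0470). In this model, which fits 1 replicate effect for both groups, replicate 2 was above replicate 1 on the log2 scale. The effect was 0.62 for *SPINT1*, 0.66 for *SPINT2* and 0.71 for *PRSS8*, and for replicate 3 it was 0.35, 0.16 and 0.54. The groups differed in the size of these steps. From replicate 1 to 2, *PRSS8* went from 15.5 to 33.3 CPM in WT and from 17.6 to 22.0 CPM in LSD1 KO. From replicate 1 to 3, *SPINT2* went from 238.9 to 291.8 CPM in WT and from 232.4 to 238.9 CPM in LSD1 KO. *ST14*, *EPCAM* and *F2RL1* did not pass, with q values of 0.289, 0.595 and 0.630. Single libraries moved some of these calls. *PRSS8* had a q value of 0.271 without WT replicate 1, *ST14* one of 0.0758 and 0.0349 without LSD1 KO replicate 1 or 2, and *EPCAM* one of 0.00201 and 0.00478 without WT or LSD1 KO replicate 2.

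Over the 6 libraries, the deviations of *ST14* and *PRSS8* from their group means had a Pearson's r of 0.958, and those of *SPINT1* and *SPINT2* one of 0.855. *PRSS8* had an r of 0.847 with *SPINT2* and 0.824 with *SPINT1*, and *ST14* one of 0.76 and 0.654 with them. Since *ST14* varied by only 2.84% of its mean in LSD1 KO, its values of r rest mostly on the WT libraries. The deviations of *EPCAM* had an r of -0.415 with *SPINT1* and 0.0800 with *SPINT2*. These are descriptions over 6 libraries that share replicate numbers and depth. The genes whose log2 CPM ran most like that of *ST14* over the 6 libraries, among 2423 genes compared, were *TMEM125* (r = 0.993), *DUSP6*, a phosphatase of the ERK pathway (r = 0.984), *KDM1A* itself (r = 0.968), *SOWAHA* (r = 0.968) and ENSG00000250920 (r = 0.966). *DUSP6* had 226.7, 339.3 and 300.5 CPM in WT and 166.3, 150.6 and 160.0 CPM in LSD1 KO. Like *ST14*, it was lowest in replicate 1 among the WT libraries. Those most like *EPCAM* were *PRRG2* (r = 0.983), *NOXO1* (r = 0.968), *AOPEP* (r = 0.964), ENSG00000248112 (r = 0.960) and *MSRB3-AS1* (r = 0.957). Each of these likenesses mostly carries the difference between the groups.

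The related genes were taken from 4 lists of 67 genes in all, of which 37 were tested. None was called by edgeR without the replicate block (2 had an unadjusted p under 0.05, against 3.12% of all tested genes), none with it (11 had an unadjusted p under 0.05, against 13.4%) and none by DESeq2's Wald test. DESeq2 with the replicate block gave a q value to 14165 genes, of which 4.21% were called and 2.53% called as higher. How many of the 37 had such a q value is not given here. That fit called 4 of the 37, all higher in LSD1 KO. They were *F2R*, the thrombin receptor (log2 fold change 0.38, standard error 0.13, q value 0.0724), *PLAUR*, the urokinase receptor (0.45, 0.15 and 0.0834), *CLDN4*, a claudin (0.34, 0.11 and 0.0473), and *FHL2*, a partner of the EPCAM intracellular domain (0.47, 0.13 and 0.0121).

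Among EPCAM partners and the enzymes that process EPCAM, 9 of 13 tested genes had a positive log2 fold change, with a median of 0.077. Over all tested genes, 8856 of 17672 had a positive one. *CLDN7*, the claudin that binds EPCAM, had 69.6, 136.3 and 104.1 CPM in WT and 73.9, 53.3 and 72.3 CPM in LSD1 KO, so the groups overlapped through WT replicate 1. In edgeR with the replicate block its log2 fold change was -0.60, with a standard error of 0.23 and a q value of 0.307. The most abundant of the list, *CD44* and *CD9*, had log2 fold changes of -0.26 (standard error 0.22) and 0.077 (standard error 0.24) without the block.

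Among substrates and receptors, 7 of 11 tested genes had a positive log2 fold change (8856 of 17672 over all tested genes), with a median of 0.048. *MET*, the receptor of HGF, had 438.9 ± 77.6 CPM (SD, n = 3) in WT and 399.1 ± 66.4 CPM in LSD1 KO. *CDCP1*, a surface protein cut by matriptase, had 381.4 ± 85.8 CPM in WT and 487.8 ± 68.7 CPM in LSD1 KO. The ranges of both genes overlapped between the groups, and *HGF* itself had no count in any library. Among the other inhibitors, 6 of 8 tested genes had a positive log2 fold change, with a median of 0.045. *APP*, whose longer forms carry a Kunitz domain, had 464.1 ± 16.4 CPM in WT and 468.7 ± 18.2 CPM in LSD1 KO, and *APLP2* had 381.1 ± 12.7 and 401.2 ± 70.5 CPM. Among the other membrane proteases, *CORIN* was the 1 of 37 related genes tested whose groups did not overlap (2.70%, against 7.74% of all tested genes). It had 4.66 ± 0.417 CPM in WT and 7.21 ± 0.771 CPM in LSD1 KO and was not called (with the block, edgeR gave a log2 fold change of 0.63, a standard error of 0.19 and a q value of 0.201).

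**Figure D5:**
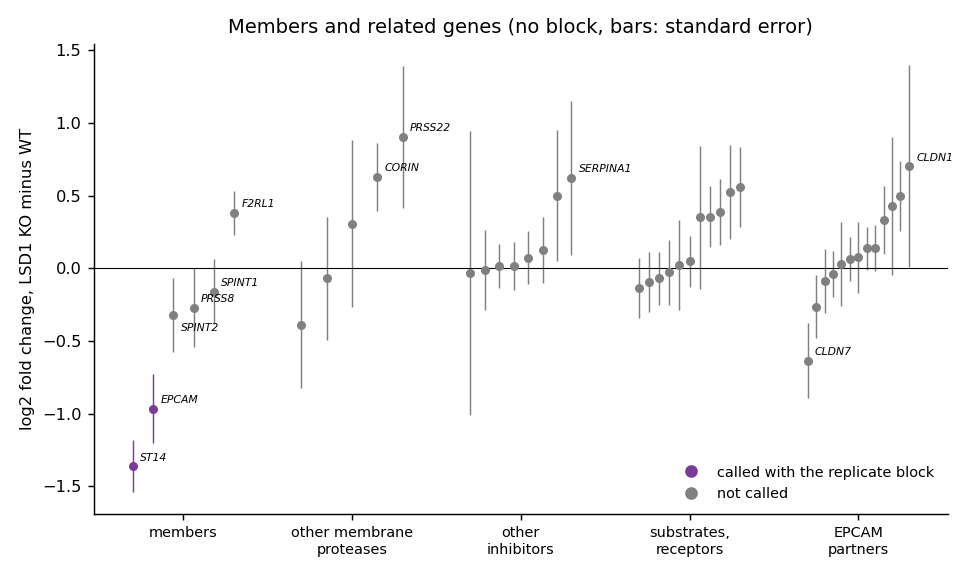
Log2 fold change of LSD1 KO minus WT without the replicate block, with standard errors, for the tested members and the tested genes of the 4 lists (5 membrane proteases, 8 inhibitors, 11 substrates and receptors, 13 EPCAM partners). Purple marks genes called with the replicate block, which are *ST14* and *EPCAM* alone.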

How the data were processed

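Poly(A) RNA from HCT116 was read in 3 libraries per group. Per the submitters' processing notes and the study's methods, the authors used FastQC, trimmed the read pairs (Trimmomatic 0.39), ran Salmon 1.4.0 on GENCODE transcripts of GRCh38, and deposited estimated counts per gene in whole numbers, unscaled. How transcripts were summed to genes and whether strand was used are not given in the sources used here. Antisense exons overlap 36.7% of the canonical *SPINT2* transcript and 19.4% of that of *PRSS8*, although the *SPINT2* antisense gene had a WT mean of 0.733 CPM. On the same strand, exons of ENSG00000267748 overlap 14.3% of the canonical *SPINT2* transcript, and that gene was not among those tested. Totals were 25379279 to 29186963 counts.

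Symbols were matched by Ensembl identifier (58395 of 60240 genes). Groups were compared with edgeR 4.0.16 (TMM, filterByExpr, quasi-likelihood test, Benjamini-Hochberg, q value under 0.1) over 17672 genes. Standard errors came from the fold change and F. Same-numbered WT and LSD1 KO libraries deviated together from their group means (r = 0.553, 0.553 and 0.404 across genes). A fit with the replicate number as a block is therefore given beside the main one. The sources used here do not give whether same-numbered libraries were prepared together. The pairing thus rests on the replicate numbers and on these same values. DESeq2 1.42.0 served as alternative. Lengths per kb and coding sequences came from GENCODE v44lift37 canonical transcripts (98.8% of tested genes had a length). Sites were found with Biopython 1.88 by motif in the translation. The fits were run on simulated data in which same-numbered libraries shared a replicate effect. Since that effect was built in, the simulation cannot say whether the block suits these libraries.

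The members and lists were chosen with earlier results of these data known. Named genes were the members, *KDM1A*, list genes called with no overlap between groups and at least 1 CPM, the 2 most abundant of each list, and the 5 genes most correlated with *ST14* or *EPCAM*, among those with an SD of at least 0.5 in log2 CPM. *CLDN7*, *DUSP6* with its values per library, and the genes called by DESeq2 with the block were named after their values were seen. Some genes of the lists are not reported here by name.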

Additional observations from a re-analysis of the deposited data

How the results depend on the processing

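The number of genes called between LSD1 KO and WT was 1 with TMM, upper-quartile or RLE scaling, under a stricter minimum of 10 counts and at a q value under 0.05. It was 114 (62 higher) without a filter on low counts (total above 0), 95 (57 higher) with DESeq2's Wald test, 282 (185 higher) in edgeR with the replicate block and 597 (359 higher) in DESeq2 with the replicate block. Leaving out 1 library gave from 1 to 26 genes, the 26 without LSD1 KO replicate 2, and the replicate block without 1 pair gave 428, 1055 and 198 without replicate 1, 2 or 3. The fold changes of the 6 tested members kept their sign in all 17 alternatives each, from -1.50 to -1.24 for *ST14*, from -1.22 to -0.66 for *EPCAM*, from 0.34 to 0.41 for *F2RL1*, and, far wider, from -0.52 to -0.014 for *PRSS8*, from -0.37 to -0.019 for *SPINT1* and from -0.50 to -0.028 for *SPINT2*. The ends of the last 3 ranges came from leaving out WT replicate 1 or 2 or LSD1 KO replicate 1 or 2. The alternative at a q value under 0.05 changed the threshold only, so its fold changes are those of the main fit. All alternatives reuse these libraries or some of them. *ST14* was called in 7 of the 17 alternatives, *EPCAM* in 6 and *F2RL1* in 2. The calls of *F2RL1* came from DESeq2 with the replicate block and from edgeR's block without replicate 2. With all 6 libraries, edgeR's replicate block changed no call among the members other than those of *ST14* and *EPCAM*. For the effect of replicate number, 7273 genes were called, and leaving out 1 library gave from 4525 to 8668, the low values of 4525 and 4554 without replicate 3 of WT or LSD1 KO. Size factors moved the median log2 fold change of all genes to between -0.0060 and 0.00082. Depth limited *TMPRSS2*, *TMPRSS4* and *HPN*, which lay near or under the floor of 3 counts.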

Other observations

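Among the related genes, LSD1 KO replicate 2 stood apart for *SCNN1A*, *PRSS22* and *PLAUR*. None of them was called by edgeR, and *PLAUR* was called by DESeq2 with the replicate block. *SCNN1A*, a subunit of the epithelial sodium channel, had 61.7, 71.0 and 82.1 CPM in WT replicates 1, 2 and 3 and 123.8, 25.3 and 124.8 CPM in LSD1 KO, so it lay above each WT library in LSD1 KO replicates 1 and 3 and below each in replicate 2. *PRSS22*, a secreted tryptase-like protease, had 2.49, 5.03 and 3.58 CPM in WT and 10.5, 2.65 and 7.61 CPM in LSD1 KO, so it also lay above each WT library in LSD1 KO replicates 1 and 3, and within the WT range in replicate 2. *PLAUR* had 58.4, 92.1 and 76.2 CPM in WT and 78.9, 170.0 and 77.9 CPM in LSD1 KO, highest in replicate 2 of both groups. *PLAUR* passed the test of replicate number (q value 0.0159 from edgeR), and *SCNN1A* and *PRSS22* did not (q values 0.229 and 0.801). These genes were picked after their values were seen.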
